A study of Mus musculus with 6 samples.

Results

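The peroxisome genes of the mouse aorta were examined as a group of 33 listed genes, comprising peroxins, membrane transporters and enzymes of peroxisomal lipid metabolism. A gene was measured where a probe set of the array carried that 1 gene symbol in the platform annotation, and the probe set of highest mean over the 6 arrays stood for the gene. This gave 30 of the 33 genes, among 12393 genes with such a probe set. Pex10, Agps and Nudt12 were not analysed here. Of the 30, 27 had enough signal to be tested, and Acox3, Abcd2 and Abcd4 lay below the limit on low signals given below.

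Peroxisomes are organelles that shorten very long, branched and dicarboxylic fatty acids, break down phytanic acid by alpha-oxidation, begin the synthesis of ether lipids and destroy the hydrogen peroxide that their oxidases make. Their matrix proteins are made in the cytosol and imported by receptors that dock at the peroxisomal membrane, and the peroxins (Pex genes) build this machinery. Many genes of peroxisomal fatty acid oxidation are targets of PPAR-alpha, a nuclear receptor that binds fatty acids, and brown fat and liver are rich in these enzymes.

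The 6 arrays carried aortic RNA of C57BL/6J mice, 3 for a high fat diet and 3 for regular chow, with RNA of 3 aortas pooled for each array after removal of adventitia and periaortic fat. The high fat diet lasted 16 to 18 weeks and began at 10 weeks of age in replicates 2 and 3, while the label of replicate 1 gave an age of 16 to 20 weeks. Chow replicates 2 and 3 were 26 to 28 weeks old and no age was given for chow replicate 1, so that ages at collection match between the diets for replicates 2 and 3, as far as the labels go, and cannot be compared for the arrays numbered 1. The mice were labelled male except in high fat replicate 1, whose label gave no sex. The pools were described as independent, so that p-values measure the spread between 3 pools per diet and not between animals.

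Every array carried strong smooth muscle signal: Acta2, smooth muscle actin, lay between 7181 and 9545 and Myh11, smooth muscle myosin, between 3212 and 3920. Brown adipocyte markers were present too, although fat had been removed. Ucp1, the uncoupling protein of brown fat, had signals of 3664, 3623 and 3154 on high fat diet and 2593, 2122 and 2724 on chow. The summed signal of 8 brown adipocyte markers was 10426 to 12700 on high fat diet and 6796 to 8991 on chow. Most of it came from Ucp1, Cidea and Cox8b. The sums of the diets did not overlap. Zic1, at 6.8 to 24.2, was the only one of the 8 below the limit on low signals. Slc27a2, 1 of the 8, also counts among the further peroxisomal genes below. Its log2 fold change was -0.13 with overlapping diets. Of the 7 brown markers tested, 5 were higher on high fat diet at an unadjusted p under 0.05 in limma, against 4.28% of the 8326 genes tested. Taken singly, 4 of the 7 had all high fat arrays above all chow arrays, against 6.79% of all genes. The median log2 fold change of the 7 was 0.50. The summed signal of 5 macrophage markers, most of it from Csf1r and Lyz2, was 2079 to 3509 on high fat diet and 1626 to 2064 on chow. All 5 had enough signal to be tested. Of these 5, 4 had higher means on high fat diet, against 50.9% of all genes tested. At an unadjusted p under 0.05 in limma 3 were higher, against 4.28% of all genes. Cd14, a receptor for bacterial lipopolysaccharide, was lower on every high fat array (log2 fold change -0.31). None of the 5 passed an adjusted p of 0.05, the smallest in limma being 0.452. The summed signal of 6 white adipocyte markers, most of it from Adipoq, was 2862 to 3086 on high fat diet and 2528 to 3427 on chow. Of the 4 white markers tested, 3 had higher means on high fat diet, against 50.9% of all genes tested. Adipoq had a log2 fold change of 0.07, Lipe 0.54 and Nnat 0.56, each with overlapping diets. At an unadjusted p under 0.05 in limma, Lipe was higher and Retn lower, 1 gene each way, against 4.28% and 2.7% of all genes. Lep and Agt lay below the limit on low signals. Lep had 111.4, 66.7 and 56.2 on high fat diet and 7.8, 16.0 and 28.2 on chow. Retn was lower on every high fat array (log2 fold change -1.06, adjusted p = 0.0435, limma). The summed signal of 5 adventitial fibroblast markers was 6094 to 6897 on high fat diet and 6799 to 7689 on chow. These markers were present although adventitia had been removed, and Dcn gave the largest part of the sum. Of the 5, 2 had higher means on high fat diet and 3 lower, where 50.9% of all genes tested were higher. The part of these cell types in the peroxisomal values below was not tested. In such bulk samples, fewer cells of a type and less RNA per cell cannot be told apart.

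The comparison asked which peroxisomal genes differed in the aorta after a high fat diet. The log2 fold change is the difference between the diets in mean log2(signal + 6), positive where the high fat mean was higher, and it understates the change of low signals. A gene was called at an adjusted p of 0.05 in limma, adjusted over the 13575 probe sets that lay above the 40th percentile of mean log2 value, which corresponds to a signal of 40.7. None of the 27 peroxisomal genes passed, the smallest adjusted p in limma being 0.445, and 4 had an unadjusted p under 0.05. Over all probe sets, 10 passed, 0.0737% of those tested. The values that follow are therefore descriptions of sizes and spreads, and no peroxisomal gene was called changed.

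As a group the tested genes had slightly higher signals on high fat diet. The high fat mean was higher for 23 of 27 (85.2%), against 50.9% of the 8326 genes tested, and the median log2 fold change was 0.22, against 0.01 over all genes tested. The 27 genes share the same 6 arrays and are not independent observations. At an unadjusted p under 0.05, 3 genes were higher (11.1%, against 4.28% of all genes) and 1 was lower (3.7%, against 2.7%). All 3 high fat arrays lay above all 3 chow arrays for 5 genes (18.5%, against 6.79% of all genes), all 3 lay below for 1 gene (3.7%, against 5.78%), and the diets overlapped for 21. The difference of the means was smaller than the pooled SD between pools of 1 diet for 13 of the 27. The genes with the clearest separation were Hsd17b4 and Pex11a, both higher, and Pxmp2, lower.

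**Figure D1:**
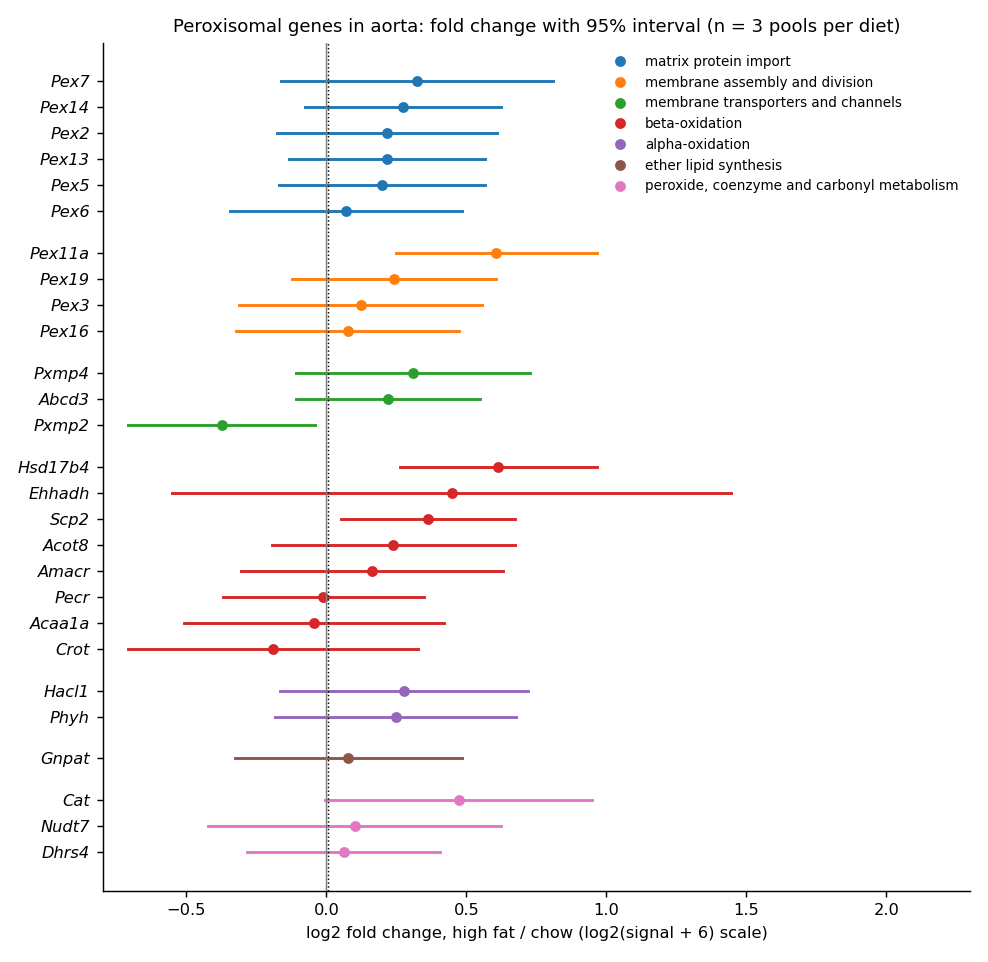
The log2 fold change (high fat over chow, x axis) of the 27 tested peroxisomal genes is plotted as a point with its 95% interval from limma, coloured by role, with the dotted line at the median of all genes tested (0.01). Most points lie between 0 and 0.5, and 4 intervals leave out 0: Pex11a, Hsd17b4 and Scp2 above it and Pxmp2 below it.

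The stretches before the start sites of 3 genes are shown because Pex11a and Scp2 are among the 4 genes with an unadjusted p under 0.05, described below, and because Cat and Scp2 hold the motif marked in them. Hsd17b4 and Pxmp2, the remaining 2 of the 4, are not in the promoter table used. Each stretch is the 250 bases upstream of the first RefSeq transcript start listed, on GRCm38.p6, 5′ to 3′ on the gene's strand. Capitals mark AGGTCA or its reverse complement TGACCT, the core element bound by PPAR, RXR and other nuclear receptors.
Pex11a, chr7:79743132-79743381, minus strand: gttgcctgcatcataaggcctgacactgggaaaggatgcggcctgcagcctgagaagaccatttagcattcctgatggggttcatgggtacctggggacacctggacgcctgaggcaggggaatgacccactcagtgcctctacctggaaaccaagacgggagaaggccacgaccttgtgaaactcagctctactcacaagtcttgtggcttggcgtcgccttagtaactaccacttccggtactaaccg
Scp2, chr4:108118548-108118797, minus strand: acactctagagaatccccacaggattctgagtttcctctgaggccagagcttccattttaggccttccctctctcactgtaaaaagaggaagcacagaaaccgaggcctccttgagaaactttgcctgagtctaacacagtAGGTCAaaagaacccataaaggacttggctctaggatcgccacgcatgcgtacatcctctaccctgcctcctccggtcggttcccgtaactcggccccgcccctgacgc
Cat, chr2:103485154-103485403, minus strand: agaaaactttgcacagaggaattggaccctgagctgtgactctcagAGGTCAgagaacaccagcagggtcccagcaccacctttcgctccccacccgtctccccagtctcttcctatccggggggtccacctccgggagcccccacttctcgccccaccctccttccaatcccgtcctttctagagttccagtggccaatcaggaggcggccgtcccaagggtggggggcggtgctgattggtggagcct
Scp2 held 1 copy of AGGTCA, starting 109 bases before the start, and Cat held 1 copy, starting 204 bases before it. Of the 23 measured members with a promoter in the RefSeq table, these 2 held the core element (8.7%), against 13.8% of 27018 genes in windows of the same length. The tandem form AGGTCANAGGTCA, in which the core element is repeated after a spacer base, was searched on both strands with up to 2 mismatches. It was found in Cat alone among the 23 (4.35%, against 3.18% of all genes), as AGGTCAGAGAACA at the same place as the core element. Pex11a had neither motif in this window. A match is a description of letters and not a binding site.

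Pex11a, whose product elongates and divides peroxisomes, had signals of 216.7, 266.3 and 217.9 on high fat diet and 168.6, 136.9 and 148.1 on chow. The lowest high fat array lay above the highest chow array. The means were 234 ± 28.3 and 151 ± 16.1 (SD, n = 3 each), 1.52-fold apart, with a log2 fold change of 0.61 ± 0.16 (SE, 95% interval 0.25 to 0.97, unadjusted p = 0.00351, adjusted p = 0.454, limma). A second Pex11a probe set had a log2 fold change of 0.18 with overlapping diets, so the difference rests on 1 of its 2 probe sets. Over 18 alternative settings, which included leaving out each array in turn, the log2 fold change of Pex11a lay between 0.39 and 0.73 and its adjusted p in limma between 0.347 and 0.986.

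The peroxins that insert membrane proteins differed less. Pex19, the cytosolic chaperone and receptor of membrane proteins, had 287 ± 37.2 on high fat diet and 242 ± 33.7 on chow, a log2 fold change of 0.24. Pex3, its docking partner, had 0.12, and Pex16, which helps to recruit Pex3, had 0.08. For these 3 genes the diets overlapped. Second probe sets gave 0.34 for Pex3, 0.16 for Pex16 and 0.19 for Pex19 on the same scale. Over the whole group, 12 members had several tested probe sets, and in 9 of these all had the same sign.

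All 6 measured genes of matrix protein import lay higher on high fat diet by their means, where 50.9% of all genes tested were higher. Their log2 fold changes ran from 0.07 to 0.32, and none had an unadjusted p under 0.05. Pex14, a docking protein of the import pore, had signals of 283.5, 291.0 and 275.7 on high fat diet and 199.0, 234.1 and 273.3 on chow. Its diets did not overlap, but the gap between them was only 2.4 signal units wide. Its log2 fold change was 0.27 ± 0.16 (adjusted p = 0.774, limma). Pex13, the other docking protein, had 0.21. Pex5, the import receptor that reads the carboxy-terminal targeting signal, had 0.20, and Pex7, the receptor of the amino-terminal signal, had 0.32. Pex2, a ubiquitin ligase that recycles the receptor, had 0.22, and Pex6, an ATPase that extracts it, had 0.07. Pex6 was the import gene whose probe sets differed in sign, as the other 3 tested had -0.09, -0.09 and -0.05. Its own value turned to -0.11 without high fat replicate 2 and to -0.20 with the mean of its probe sets. That mean takes in a further Pex6 probe set below the limit on low signals, with signals of 6.5 to 33.7. On chow, Pex7 ranged from 143.7 to 268.3, wide enough to cover all but 1 of its high fat signals (223.0, 292.7 and 238.7). The log2 fold change of Pex7 was 0.10 without chow replicate 1 and 0.54 without chow replicate 3.

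The genes of beta-oxidation ranged from the largest log2 fold change of the 27 members, that of Hsd17b4, to values near 0 and below it. Hsd17b4, the D-bifunctional protein that hydrates and dehydrogenates very long and branched acyl-CoA, had signals of 499.4, 683.6 and 662.2 on high fat diet and 369.2, 385.5 and 436.4 on chow. All high fat arrays lay above all chow arrays. The means were 615 ± 100.7 and 397 ± 35.1, 1.53-fold apart, with a log2 fold change of 0.61 ± 0.16 (95% interval 0.26 to 0.97, unadjusted p = 0.00286, adjusted p = 0.445, limma). A second Hsd17b4 probe set had 0.41 with an unadjusted p of 0.0826 in limma. Over the 18 alternatives the log2 fold change of Hsd17b4 lay between 0.51 and 0.76.

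Scp2, whose gene encodes both a sterol carrier protein and a thiolase for branched chains, had signals of 1328, 1695 and 1714 on high fat diet and 1111, 1233 and 1325 on chow. The diets did not overlap, but high fat replicate 1 exceeded chow replicate 3 by only 2.4. Its log2 fold change was 0.36 ± 0.14 (unadjusted p = 0.0267, adjusted p = 0.639, limma), and the other 3 probe sets of Scp2 had -0.05, -0.04 and 0.07. The log2 fold change of Scp2 fell to 0.09 when the probe sets of a gene were averaged, so that this difference depends on the probe set.

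Ehhadh, the L-bifunctional enzyme and a classical PPAR-alpha target, was the most variable member. Its signals were 32.0, 120.7 and 151.0 on high fat diet and 78.0, 42.5 and 67.2 on chow. High fat replicate 1 was the lowest of all 6 arrays and replicates 2 and 3 were the highest, so the log2 fold change of 0.45 had an interval of -0.55 to 1.45. Without high fat replicate 1 the log2 fold change of Ehhadh was 1.08 (adjusted p = 0.264, limma), and without high fat replicate 3 it was 0.05. The adjusted p ranged from 0.229 to 0.999 over 17 alternatives. Cardiac muscle markers were likewise lowest in replicate 1 among the high fat arrays, but their order on chow differed. The sum of 8 of them was 813 in high fat replicate 1 and 768 in chow replicate 3. It was between 2279 and 3178 in the other chow arrays, and 6387 and 4904 in high fat replicates 2 and 3. All 8 cardiac markers had enough signal to be tested. Their part in the Ehhadh values was not tested.

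The other enzymes of beta-oxidation had intervals that included 0. Acot8, a thioesterase that releases free acids from acyl-CoA, had a log2 fold change of 0.24, and Amacr, the racemase that readies branched chains for oxidation, had 0.16. Pecr, a reductase of enoyl-CoA, had 110 ± 3.9 on high fat diet and 111 ± 9.8 on chow, with a log2 fold change of -0.01 and an interval of -0.37 to 0.35. Acaa1a, a thiolase of the last step, had -0.05 on a probe set of the _x_at type, which can bind related transcripts such as that of Acaa1b. A second Acaa1a probe set of this type had 0.13, and the mean of the Acaa1a probe sets gave 0.04. Crot, which makes octanoylcarnitine for export to mitochondria, had -0.19. Its chow mean was raised by 1 array, with signals of 188.6, 104.5 and 102.3 on chow against 98.7, 113.0 and 119.9 on high fat diet, and without that array its log2 fold change was 0.09. Acox3, an oxidase of branched acyl-CoA, stayed between 22.1 and 44.6 on all arrays.

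**Figure D2:**
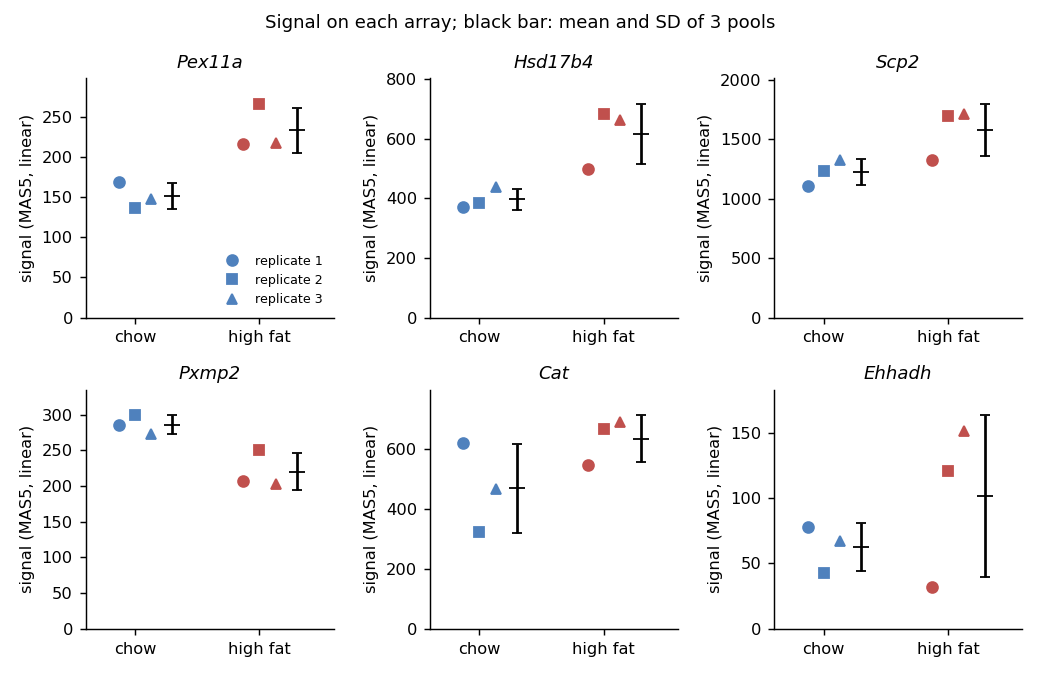
The signal of 6 members on each array (y axis, linear from 0) is plotted by diet, with the symbol giving the replicate number and the black bar the mean and SD of 3 pools. Pex11a, Hsd17b4 and Scp2 lay higher on all high fat arrays and Pxmp2 lower, while Cat and Ehhadh overlapped between the diets.

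Among the membrane proteins, Pxmp2 was the member with the largest negative difference. Pxmp2, a channel for small solutes, had signals of 206.5, 250.2 and 203.4 on high fat diet and 285.8, 298.9 and 273.4 on chow. Every high fat array lay below every chow array. The means were 220 ± 26.2 and 286 ± 12.8, with a log2 fold change of -0.37 ± 0.15 (95% interval -0.71 to -0.04, unadjusted p = 0.0308, adjusted p = 0.649, limma). The value stayed between -0.47 and -0.32 over the 18 alternatives. Pxmp4, another integral membrane protein, had 0.31 with overlapping diets. Abcd3, the transporter that brings branched acyl-CoA and bile acid intermediates into the peroxisome, had 732 ± 113.3 and 623 ± 36.1, a log2 fold change of 0.22. Its relative Abcd2, a transporter of very long acyl-CoA, had signals of 3.0 to 25.6 and Abcd4, a family member that acts in lysosomal cobalamin transport, 22.8 to 53.7, and neither was tested.

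Cat, the catalase that removes hydrogen peroxide, had signals of 547.2, 668.8 and 691.1 on high fat diet and 620.7, 323.2 and 467.1 on chow. The diets overlapped because chow replicate 1 exceeded high fat replicate 1. Its log2 fold change was 0.47 ± 0.22 (95% interval -0.01 to 0.95, unadjusted p = 0.0525, adjusted p = 0.709, limma), and a second Cat probe set had 0.31. The log2 fold change of Cat was 0.23 without chow replicate 2, its lowest array, and 0.69 without chow replicate 1, its highest on chow. The unadjusted p was under 0.05 without chow replicate 1 and without high fat replicate 1, and in none of the other 4 fits that left out 1 array. Nudt7, which cleaves coenzyme A, had 0.10, and Dhrs4, a carbonyl reductase, had 0.06 on its chosen probe set and 0.27 on the other.

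Of the genes of alpha-oxidation, Hacl1, the lyase that shortens hydroxylated acyl-CoA by one carbon, had signals of 68.4, 67.9 and 88.6 on high fat diet and 64.3, 53.3 and 64.3 on chow. The diets did not overlap, and its log2 fold change was 0.28 ± 0.20 (adjusted p = 0.814, limma). Phyh, the hydroxylase of phytanoyl-CoA, had 589.2, 653.0 and 713.1 on high fat diet and 501.7, 433.8 and 750.4 on chow, so that chow replicate 3 was the highest array. Chow replicate 3 also carried the most hepatocyte marker signal: the sum of 5 hepatocyte markers was 1118 there and 292 to 438 on the other 5 arrays. Of the 5, Fgb and Cyp7a1 lay below the limit on low signals. The log2 fold change of Phyh was 0.25 (95% interval -0.18 to 0.68, adjusted p = 0.833, limma). It was 0.47 without chow replicate 3 and 0.08 without chow replicate 2, and the part of the hepatocyte markers in it was not tested. Gnpat, the acyltransferase that begins ether lipid synthesis, had 338 ± 61.3 on high fat diet and 320 ± 55.4 on chow, a log2 fold change of 0.08.

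The arrays differed in how they ranked for the group. High fat replicates 2 and 3 were the highest array for 10 members each, and chow replicate 2 was the lowest array for 12 and chow replicate 1 for 8 of the 27. The mean log2 deviation of the 27 genes from their 6-array means was -0.03 in high fat replicate 1 and 0.16 in each of the other 2 high fat arrays. On chow it was -0.10 in replicate 1, -0.22 in replicate 2 and 0.03 in replicate 3. High fat replicate 1 thus lay below chow replicate 3 for the group mean. Without chow replicate 2 the median log2 fold change of the group was 0.13, and 2 rather than 4 genes had an unadjusted p under 0.05. The number was 2 without high fat replicate 3 as well, and 7 without chow replicate 3, where the median was 0.29. Pex11a and Hsd17b4 were among the genes under that level in each of the 6 fits that left out 1 array. Without both arrays numbered 1, whose ages are unclear, the median was 0.21 and 5 genes were under that level: Pex11a, Hsd17b4, Scp2, Cat and Ehhadh.

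**Figure D3:**
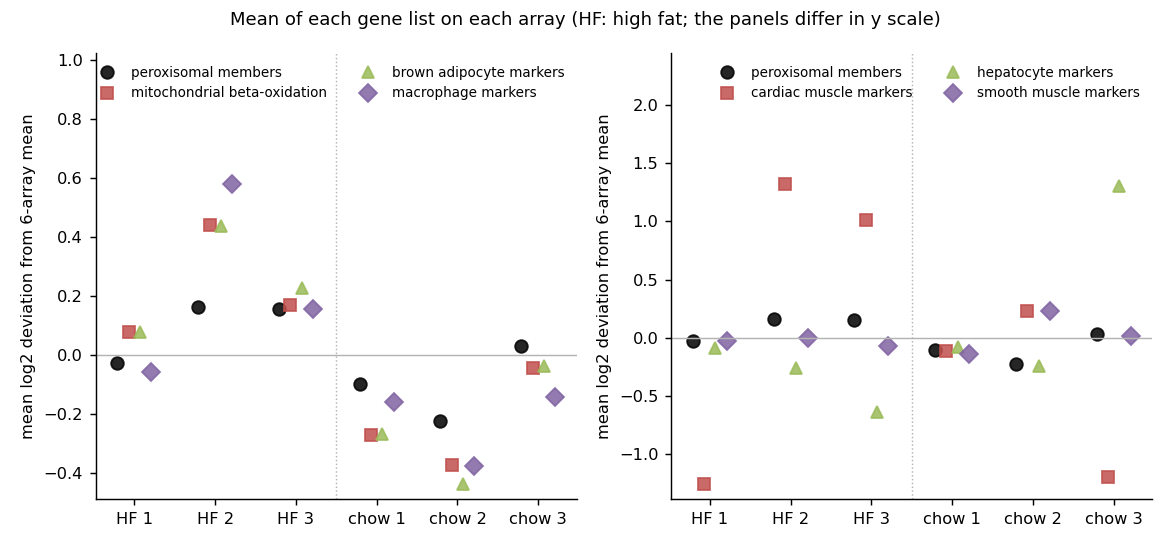
The mean log2 deviation from the 6-array mean (y axis) is plotted for each array (HF, high fat) and gene list: peroxisomal members with mitochondrial beta-oxidation, brown adipocyte and macrophage markers on the left, and with cardiac, hepatocyte and smooth muscle markers on the right, at a wider scale. The members range from -0.22 to 0.16, the cardiac markers from -1.25 to 1.32, and the hepatocyte markers reach 1.30 in chow replicate 3.

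A further 47 peroxisomal genes were listed beside the members; 36 had a probe set and 27 were tested. An adjusted p of 0.05 in limma was reached by none. At an unadjusted p under 0.05, 3 were higher and 0 lower, against 4.28% and 2.7% of all genes tested. Of the 27, 14 had a higher mean on high fat diet and 13 a lower one, where 50.9% of all genes were higher. Their median log2 fold change was 0.11. The genes named next are the 5 of smallest unadjusted p in limma. Ephx2, an epoxide hydrolase of fatty acid epoxides, had 617.3, 812.6 and 669.6 on high fat diet and 437.4, 489.6 and 554.3 on chow, a log2 fold change of 0.50 ± 0.15 (adjusted p = 0.518, limma) without overlap. Ech1, a dienoyl-CoA isomerase found in peroxisomes and mitochondria, had 0.37, and Mlycd and Acot6 had 0.33 and 0.36, each without overlap. Acaa1b, a thiolase closely related to Acaa1a, had 130.4, 460.1 and 503.1 on high fat diet and 140.0, 125.9 and 218.0 on chow. Acaa1b was thus low in high fat replicate 1 and high in replicates 2 and 3, as Ehhadh and the cardiac markers were among the high fat arrays, and its log2 fold change of 0.97 had an interval of 0.03 to 1.91.

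Of 11 listed regulators, 9 had a probe set and 7 were tested, with a median log2 fold change of 0.42. Of the 7, 6 were higher and 1 lower, where 50.9% of all genes tested were higher. No regulator passed in limma, where 3 were higher at an unadjusted p under 0.05, against 4.28% of all genes. Ppara, which encodes PPAR-alpha, had 213.4, 203.7 and 212.8 on high fat diet and 110.4, 83.2 and 136.6 on chow, a log2 fold change of 0.92 ± 0.19 (adjusted p = 0.295, limma). This was the largest fold change among the 7, and the diets did not overlap. Esrra, an orphan receptor of oxidative metabolism, had 0.47, and Ppargc1b, a coactivator of both, had 0.43. Pparg had 0.39 and Ppargc1a 0.42, with intervals that included 0.

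Mitochondrial beta-oxidation, which takes over the chains that peroxisomes have shortened, is given for scale. Mean signals were higher on high fat diet for all 17 tested genes, against 50.9% of all genes tested. The diets overlapped for Cpt1a, Acadm, Echs1, Eci1 and Etfb. The median log2 fold change of the 17 was 0.49. Of the 17, 12 were higher at an unadjusted p under 0.05, against 4.28% of all genes, among them Cpt2 (0.78) and Etfa (0.64). None passed an adjusted p of 0.05 in limma. The difference between the mitochondrial and the peroxisomal medians was not tested. The brown adipocyte markers, with a median of 0.50, lay beside the mitochondrial list. By mean log2 deviation the arrays had the same order in both lists, whereas by summed signal high fat replicate 1 lay above replicate 3 for the brown adipocyte markers and below it for the mitochondrial genes. The peroxisomal members with log2 fold changes above 0.5 were Hsd17b4 and Pex11a.

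**Figure D4:**
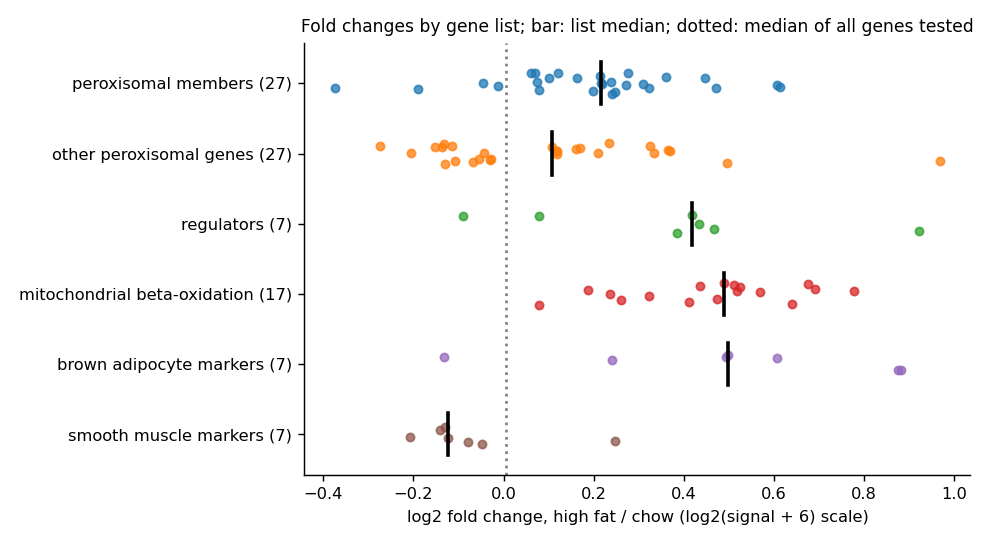
Each point is the log2 fold change (x axis, high fat over chow) of 1 tested gene in a list, the black bar is the list's median and the dotted line the median of all genes tested. The peroxisomal members centre on 0.22, below the medians of the regulators (0.42), mitochondrial beta-oxidation (0.49) and brown adipocyte markers (0.50), while the smooth muscle markers centre on -0.12.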

How the data were processed

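The authors deposited linear signal intensities, which MAS5 produced per the submitters' processing notes; the MAS5 version is not stated in the sources used here. Per the labels' protocols, 5 µg of RNA entered labelled cRNA synthesis. The 2% trimmed mean was 150.05 on each array, so the deposited scaling was kept. Of 22690 probe sets, 64 controls were left out. Names came from the platform annotation: 20380 probe sets had 1 symbol, 691 several and 1555 none. By gene ID, 20351 matched a RefSeq gene table (GRCm38.p6), and 0 symbols changed. No detection calls were used, and 42.1% to 46.3% of signals on an array lay under 50.

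Signals were taken as log2(signal + 6), the pseudocount being the 10th percentile, and probe sets above the 40th percentile of mean log2 value (13575) were fitted with limma 3.58.1 in R 4.3.3 (eBayes with trend, two-sided, Benjamini-Hochberg adjustment). The fit was tested on simulated data. With the same adjusted p, it called 8.6% of the probe sets altered by a log2 size of 0.5 and 76.4% of those altered by 1. Most simulated differences of 0.5 were therefore missed, so that real differences of this size could go uncalled. Of its calls, 6.84% were false. The number of arrays limits the precision. The members, lists, tests and alternatives were chosen with earlier results of these data known; all members are named, and up to 5 genes of smallest p in each further list of the pathway. Cell type markers were named after their values were seen. Promoters came from RefSeq and were read for motifs with Python 3.11.15.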

Additional observations from a re-analysis of the deposited data

How the results depend on the processing

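No member passed an adjusted p of 0.05 in limma under any of the 18 alternatives, and the number with an unadjusted p under 0.05 lay between 2 and 7 when single arrays were left out. The median log2 fold change of the members lay between 0.13 and 0.29 in those fits, and the number with a higher mean lay between 19 and 25, of 23 to 30 tested, over all alternatives. Of the 27 members, 17 kept their sign throughout; Pex3, Pex6, Pex16, Acaa1a, Pecr, Gnpat, Crot, Amacr, Dhrs4 and Nudt7 did not. Over all probe sets, 10 passed; the count was 6 with no filter, 5 without the variance trend, 6 with the mean of the probe sets of a gene, and between 5 and 16 when single arrays were left out. With the replicate number as a block, 5 probe sets and no member passed, and 4 members had an unadjusted p under 0.05. Deviations from the diet means correlated at 0.03, 0.17 and -0.11 between arrays of the same number. Between arrays of different number they correlated at -0.16 to 0.14, so that the numbers were not taken to pair the pools. The largest value, 0.17, was that of the replicates numbered 2. High fat replicate 1 correlated best with chow replicate 3 (0.09). Leaving out both arrays numbered 1 was chosen after seeing the data. Low signals could not be told from background, which limits Acox3, Abcd2 and Abcd4 among the members, and Acot3 and Rxrg among the other genes.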

Other observations

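Some genes of the pathway lay under the limit on low signals and were not tested in the main comparison. Acot3, an acyl-CoA thioesterase, had signals of 32.0, 44.7 and 16.9 on high fat diet and 6.1, 4.5 and 14.6 on chow, on a probe set of the _s_at type that can bind related thioesterases. Rxrg, a retinoid X receptor that pairs with the PPARs, had 23.2, 20.1 and 21.5 on high fat diet and 10.9, 5.1 and 4.3 on chow. For both genes every high fat array lay above every chow array, but the chow signals are too low to be told from background, so no fold change is given. In the limma fit with no filter the adjusted p-values were 0.697 and 0.609. Acox2, an oxidase of branched and bile acid side chains, had 60.2, 45.2 and 36.6 on high fat diet and 45.3, 13.6 and 16.2 on chow, with overlapping diets. These 3 genes were singled out after their values were seen.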
